A study of Homo sapiens with 12 samples.

Results

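The transcriptional response to MEK inhibition that 2 pancreatic cancer cell lines had in common was measured from all 12 libraries of the series by poly(A) RNA sequencing. KP4 and MiaPaca2 are established lines labelled as human pancreatic ductal adenocarcinoma, and each was grown in serum-containing DMEM and exposed for 48 h to the solvent DMSO or to 100 nM trametinib. Line and treatment thus gave 4 groups of 3 libraries. The treatment effect was estimated in each line and averaged over both lines with equal weight, so that the baseline difference between the lines does not enter. A gene was then counted as shared at similar size when edgeR called it in each line with the same sign, every group held more than 3 counts, the 95% interval of the difference between the lines lay within 1.5-fold either way (0.585 on the log2 scale), and the smaller log2 change was at least 0.5 of the larger. Of 16133 genes tested, 2661 met this rule. Because the rule uses the measured responses, the values of these genes describe them and are not a separate test of the response.

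Trametinib binds the kinases MEK1 and MEK2 next to their ATP site and keeps them from phosphorylating ERK1 and ERK2, the last kinases of the RAS-RAF-MEK-ERK cascade. Active ERK sustains the transcription of ETS and AP-1 family factors, of its own feedback inhibitors such as the Sprouty, SPRED and dual-specificity phosphatase proteins, and of D-type cyclins that open the way to DNA replication. In pancreatic ductal adenocarcinoma cells the lysosome, autophagy and iron supply are known to adapt when the cascade is blocked. The series was designed to follow gene expression during that adaptation. The labels give no more on either line as a model than its name and tumour type and are silent on whether replicate libraries derive from separate cultures. The p-values below therefore rest on the spread between libraries, which could be technical.

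Total counts ran from 20293688 to 28018129 per library, with 21499 to 22720 genes detected and 98.17% to 98.7% of counts in protein-coding genes. Levels are counts scaled to library depth with TMM (CPM), and fold changes are log2 of trametinib over DMSO. The ductal keratins KRT8 (51.9 and 872 CPM) and KRT18 (183 and 759 CPM) were present in KP4 DMSO and MiaPaca2 DMSO, as was the ductal transcription factor SOX9 (126 and 189 CPM). The epithelial adhesion genes EPCAM (0.353 and 0.196 CPM) and CDH1 (0.472 and 0.141 CPM) were near 0 and CFTR had no count. Of 11 mesenchymal markers 7 had a mean over 5 CPM, with the filament gene VIM at 3630 and 6060 CPM. TWIST1 and TWIST2 had no count, and ZEB2 (0.0388 and 0.182 CPM) and SNAI2 (0 and 0.595 CPM) were near 0. S100A4 stood at 0.771 CPM in KP4 DMSO and 270 CPM in MiaPaca2 DMSO. Of 10 acinar markers, 7 had no count in any library. Over 16 ductal and epithelial markers the summed level was 373 to 385 CPM in KP4 DMSO and 239 to 248 CPM with trametinib, and 1940 to 2330 and 933 to 944 CPM in MiaPaca2. The lower sums followed the abundant KRT18 and SOX9, with KRT8 and KRT19 in MiaPaca2, while of the 11 tested markers 4 were higher and 5 lower on average, with medians of 0.422 in KP4 and 0.264 in MiaPaca2. The median of their averages was -0.0385, and -0.456 over the 7 with at least 5 CPM in at least 3 libraries. The claudin gene CLDN4 went from 1.28 to 0.314 CPM in KP4 and from 82.6 to 34.4 CPM in MiaPaca2. CDH1 went from 0.472 to 4.96 CPM in KP4 and from 0.141 to 2.3 CPM in MiaPaca2. The mucin gene MUC1 went from 8.58 to 11.9 CPM in KP4 and from 17.1 to 111 CPM in MiaPaca2. The epithelial transcription factor gene ELF3 went from 24.5 to 44.4 CPM in MiaPaca2 and was near 0 in KP4 (0.0388 and 0.525 CPM). The sum of 10 fibroblast markers was 18.7 to 19.1 CPM in KP4 DMSO and 22.8 to 26.7 CPM with trametinib. In MiaPaca2 it was 14.6 to 16.9 and 45.2 to 49.6 CPM. Of these markers DCN, LUM and THY1 were close to 0 in every group. The receptor gene PDGFRB went from 0.536 to 2.57 CPM in KP4 and from 0.212 to 2.49 CPM in MiaPaca2. The share of mitochondrially encoded transcripts differed with treatment as well, at 4.16% to 4.38% without and 5.48% to 5.75% with trametinib in KP4, and 2.25% to 3.32% without and 4.02% to 4.25% with it in MiaPaca2. Replicate 2 of MiaPaca2 DMSO stood apart from the other libraries of its group. Its counts differed from theirs by a chi-square of 14.49 and 13.29 per degree of freedom. The remaining pair of that group gave 7.698, and pairs in the other groups gave 2.015 to 2.888. Without replicate 2 of MiaPaca2 DMSO, 2574 genes were shared at similar size, 2362 of them among the 2661.

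Several groups of genes that moved together in both lines have a regulatory element in their promoters that is well characterised, and the promoter stretches of 10 of them are shown to put letters beside the responses. Each is the 100 bases before the transcription start listed by RefSeq (GRCh38.p14), read on the gene's strand in lower case, with every match to the motif of its group in capitals. Lysosomal genes are represented by GAA at chr17:80101481-80101580 on the plus strand, GALNS at chr16:88856948-88857047 on the minus strand, MCOLN1 at chr19:7522524-7522623 on the plus strand and PLBD2 at chr12:113358487-113358586 on the plus strand, searched for TCACGTG, the core of the CLEAR element bound by TFEB and TFE3.
GAA: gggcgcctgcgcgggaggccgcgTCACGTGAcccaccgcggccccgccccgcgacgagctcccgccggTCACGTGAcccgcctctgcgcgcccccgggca
GALNS: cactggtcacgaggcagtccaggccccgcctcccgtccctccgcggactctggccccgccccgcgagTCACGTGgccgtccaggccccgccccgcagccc
MCOLN1: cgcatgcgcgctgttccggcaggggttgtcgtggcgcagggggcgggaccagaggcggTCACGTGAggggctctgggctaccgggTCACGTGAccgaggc
PLBD2: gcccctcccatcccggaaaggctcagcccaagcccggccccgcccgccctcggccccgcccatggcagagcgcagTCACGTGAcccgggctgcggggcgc
Genes of cell division and ribosome assembly are represented by E2F1 at chr20:33686386-33686485 on the minus strand, searched for the E2F-type element TTTNNCGC, by UTP18 at chr17:51260446-51260545 on the plus strand, searched for the E-box CACGTG bound by MYC and MAX, and by MKI67 at chr10:128126424-128126523 on the minus strand and ESPL1 at chr12:53268199-53268298 on the plus strand, searched for TTTGAA, the cell cycle genes homology region (CHR) read by the MuvB complex. Both strands were searched, so a match may read as its reverse complement, and TCACGTG contains the E-box CACGTG.
E2F1: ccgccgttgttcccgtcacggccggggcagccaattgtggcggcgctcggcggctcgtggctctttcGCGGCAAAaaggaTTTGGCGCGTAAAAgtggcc
UTP18: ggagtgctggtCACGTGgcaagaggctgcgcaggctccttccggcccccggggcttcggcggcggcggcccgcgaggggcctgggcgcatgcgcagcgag
MKI67: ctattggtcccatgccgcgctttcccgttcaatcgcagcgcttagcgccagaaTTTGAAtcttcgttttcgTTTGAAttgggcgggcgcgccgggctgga
ESPL1: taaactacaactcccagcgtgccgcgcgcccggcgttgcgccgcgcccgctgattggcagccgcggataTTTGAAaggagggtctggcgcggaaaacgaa
Interferon-induced genes, which rose in both lines but by unequal amounts, are represented by IFI6 at chr1:27672193-27672292 on the minus strand and IFIH1 at chr2:162318685-162318784 on the minus strand, searched for GAAANNGAA, a short form of the interferon-stimulated response element.
IFI6: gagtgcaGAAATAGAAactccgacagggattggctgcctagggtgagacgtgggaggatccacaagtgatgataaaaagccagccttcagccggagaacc
IFIH1: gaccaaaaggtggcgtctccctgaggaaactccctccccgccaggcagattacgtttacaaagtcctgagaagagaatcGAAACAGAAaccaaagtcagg
A match is a description of the letters, not evidence that a factor was bound.

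The averaged response was broad. The RNA came from bulk cultures, in which fewer cells of a kind and less RNA per cell cannot be told apart. edgeR's quasi-likelihood test called 10469 of 16133 genes (64.9%) in the average of both lines at a Benjamini-Hochberg adjusted p under 0.05, 5544 (34.4%) higher and 4925 (30.5%) lower with trametinib. KP4 alone gave 7617 called genes (47.2%) and MiaPaca2 alone 10255 (63.6%). In both lines 6169 genes were called, and 5726 of these (92.8%) moved the same way, 2997 up and 2729 down. The difference between the lines was called for 5828 genes (36.1%). Across the tested genes, which are not independent replicates, the responses of the lines had a Pearson r of 0.626 and a Spearman rho of 0.609. The 10900 genes with a mean of at least 5 CPM gave a Pearson r of 0.723.

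**Figure D1:**
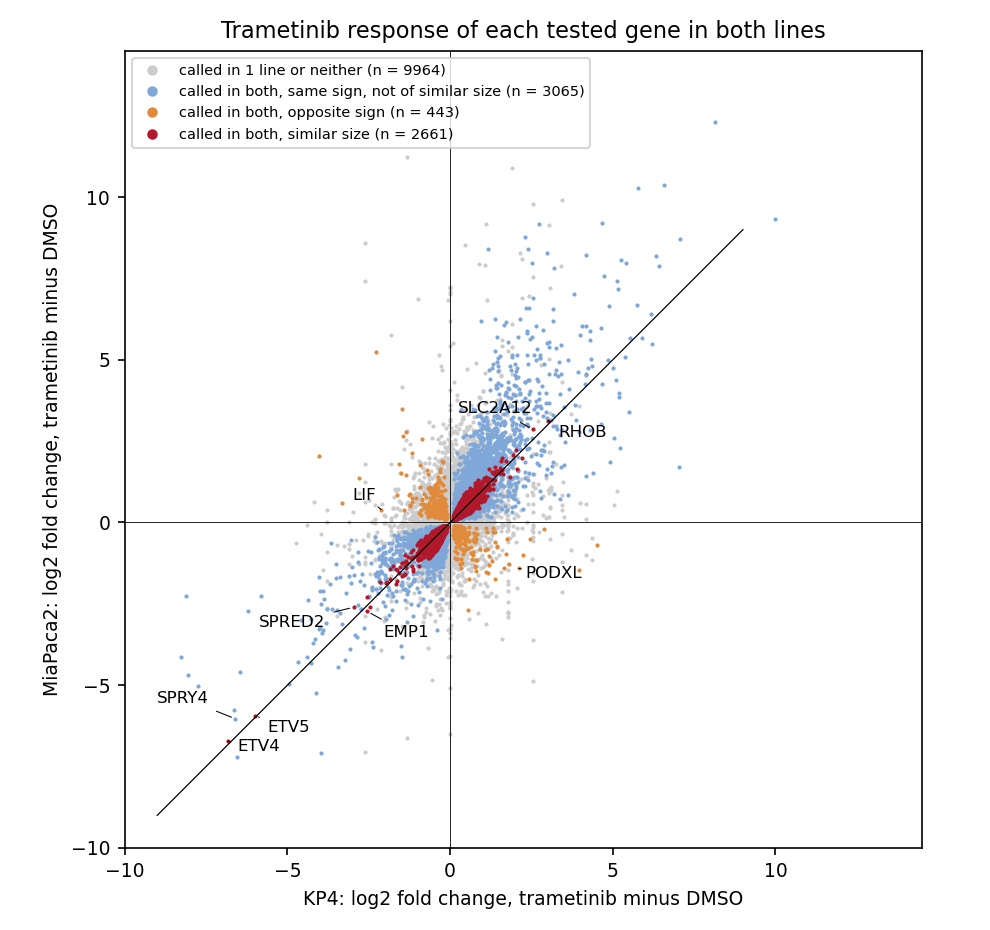
Log2 fold change of each of 16133 tested genes in KP4 (horizontal axis) and in MiaPaca2 (vertical axis), with 1 point per gene and the line of equal response. The 2661 genes of similar size (red) follow the line, from ETV4 at -6.78 to RHOB at 3.07 on average, the 443 genes called with opposite signs (orange) fill the other quadrants, and many rises (blue) are steeper in MiaPaca2.

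Genes shared at similar size made up 16.5% of the tested genes, with 1138 (7.05%) higher and 1523 (9.44%) lower. The balance turned with a strict filter of at least 5 CPM in at least 3 libraries, which gave 1320 higher and 1222 lower (51.9% higher, against 42.8%). They were 46.5% of the genes called in both lines with the same sign. In 2560 of the 2661 the trametinib libraries did not overlap the DMSO libraries in either line. Most of these shared changes were modest. The median average log2 fold change was 0.434 among those that rose and -0.377 among those that fell, against 0.0253 over all tested genes. At least 1.5-fold on average were 328 that rose and 269 that fell, at least 2-fold 64 and 45, and at least 4-fold 5 and 6. Of the 1908 genes whose average was called and reached 2-fold in either direction, 109 (5.71%) were shared at similar size. Another 631 of the 1908 had the same sign in both lines with the difference called, 488 had the same sign with an interval too wide to place them, 108 had 3 or fewer counts in a group, 414 were called in MiaPaca2 only and 112 in KP4 only, 6 were called with opposite signs and 40 were called in neither line alone.

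Membership followed expression level. The share of similar-size genes was 0% in the lowest of 4 equal bins of tested genes by mean level, 9.35% in the next (from 2.32 CPM), 26.1% in the third (from 18.9 CPM) and 30.6% in the highest (from 62.6 CPM). The median SE of the difference was 0.0866 for similar-size genes and 0.306 for the 908 genes of the same sign that stayed unresolved, whose median level was 3.64 CPM. Protein-coding genes were 98% of the similar-size genes and 82.3% of the tested genes. Before treatment the lines also differed less at these genes. The median absolute log2 ratio of the DMSO levels was 0.222 for similar-size genes, 0.478 for the 2049 same-sign genes with the difference called, 0.874 for the 443 called with opposite signs and 0.393 over all tested genes. Within the similar-size genes the MiaPaca2 change was the larger in 1793 (67.4%), and in 509 the difference, though inside the 1.5-fold bound, passed edgeR's test. Just inside the bound were SPRED2, the lysosomal progranulin gene GRN and RAB26, with interval limits of -0.57, -0.58 and -0.58. Just outside were the small GTPase gene DIRAS3 (upper limit 0.59), the polarity gene LLGL2 (0.59) and PSD3 (lower limit -0.59). The edge genes were taken by their distance to the bound, after their values were known.

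Among the similar-size genes, the transcription factors ETV4 and ETV5 fell furthest. Both belong to the PEA3 subfamily of ETS factors, whose transcription depends on ERK. ETV4 (ENSG00000175832, chr17:43527844-43579620, minus strand on GRCh38) stood at 123, 121 and 128 CPM with DMSO and 1.09, 1.12 and 1.04 with trametinib in KP4, and 79.2, 75.7 and 79.5 and then 1.26, 0.642 and 0.286 in MiaPaca2. Every trametinib library lay more than an order of magnitude below every DMSO library of its line. The log2 fold change was -6.84 in KP4 and -6.72 in MiaPaca2, an average of -6.78 ± 0.09 (SE) with an edgeR adjusted p of 3.58e-25. Its treated libraries held 89 counts in all in KP4 and 51 in MiaPaca2. The SE, taken from the fold change and the F statistic, may be too small at such counts. The interval of the difference (-0.50 to 0.27), and with it the place of ETV4 at similar size, rests on that SE. ETV5 (ENSG00000244405, chr3:186046308-186110318, minus strand) was measured at 145, 142 and 142 CPM with DMSO and 1.9, 2.62 and 2.15 with trametinib in KP4, and 129.5, 137 and 133 and then 2.88, 1.38 and 2.12 in MiaPaca2. Its level was close to equal in the lines before treatment and again after it, and the average was -5.97 ± 0.07 (SE).

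SPRED2, EMP1 and HMGA1 were also among the 12 largest falls. SPRED2 (ENSG00000198369, chr2:65310851-65432637, minus strand), which blocks the activation of RAF by RAS, was at 110.3, 102 and 111 CPM with DMSO and 13.8, 12.9 and 14.7 with trametinib in KP4, and 82.8, 89.6 and 81.3 and then 14.9, 12 and 14.7 in MiaPaca2. The treated libraries of the lines met at the same level from different starting points, with a log2 fold change of -2.96 in KP4 and -2.60 in MiaPaca2. EMP1 (ENSG00000134531, chr12:13196716-13219939, plus strand), an epithelial membrane protein of the tetraspan PMP22 family, was at 164, 154 and 149 CPM with DMSO and 28, 25.2 and 26.6 with trametinib in KP4, and 402, 396 and 370.1 and then 60.9, 59.1 and 55.9 in MiaPaca2. MiaPaca2 held more EMP1 than KP4 in either condition, yet the log2 changes were -2.55 in KP4 and -2.73 in MiaPaca2. HMGA1 (ENSG00000137309, chr6:34236873-34246231, plus strand), an architectural chromatin protein, was the most abundant of the 12 largest falls, at 2143, 2125 and 2118 CPM with DMSO and 589, 604 and 592 with trametinib in KP4, and 1907, 2125 and 2325 and then 639, 627 and 629 in MiaPaca2. It also has processed pseudogenes, and how reads from such copies were counted is not given in the sources used here. Its average change was -1.79 ± 0.03 (SE).

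BCL2 and 6 more genes of different kinds made up the rest of the large falls. BCL2 (ENSG00000171791, chr18:63123346-63320128, minus strand), which restrains mitochondrial apoptosis, was at 14.6, 15.8 and 16.5 CPM with DMSO and 4.71, 5.46 and 5.12 with trametinib in KP4, and 8.08, 8.86 and 8.15 and then 2.64, 2.37 and 2.24 in MiaPaca2. No treated library reached a control library of its line, and the average was -1.70 ± 0.09 (SE). The potassium channel gene KCNN4 changed by -2.42 ± 0.06 (SE), NT5E, the surface enzyme CD73 that makes adenosine from AMP, by -2.00 ± 0.03 (SE), and the ephrin receptor EPHA2 by -1.88 ± 0.04 (SE). RGS17, which shortens G protein signalling, changed by -1.91 ± 0.10 (SE), PMEPA1, an inhibitor of TGF-beta signalling, by -1.76 ± 0.06 (SE), and ERRFI1, the EGF receptor inhibitor MIG6, by -1.64 ± 0.03 (SE).

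RHOB, a small GTPase of endosomes and stress fibres, led the shared rises. RHOB (ENSG00000143878, chr2:20447074-20449445, plus strand) stood at 26.2, 24.8 and 23.8 CPM with DMSO and 205, 201 and 198 with trametinib in KP4, and 22.2, 25.5 and 27.3 and then 226, 216 and 216 in MiaPaca2. Both the starting and the final level were close in the lines. The log2 fold change was 3.02 in KP4 and 3.13 in MiaPaca2, an average of 3.07 ± 0.04 (SE) with an edgeR adjusted p of 1.32e-27. SLC2A12 (ENSG00000146411, chr6:133988697-134052636, minus strand), a facilitative glucose transporter, was at 14, 14.3 and 15.9 CPM with DMSO and 89.1, 80.3 and 89.3 with trametinib in KP4, and 10.6, 10.4 and 12.1 and then 81.2, 77.6 and 81.5 in MiaPaca2 and averaged 2.71 ± 0.05 (SE). For both genes the treated libraries were far above the controls of either line.

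CSF1 and 9 more genes of different kinds made up the rest of the largest rises. CSF1 (ENSG00000184371, chr1:109910242-109930992, plus strand), the macrophage growth factor, was at 7.6, 5.59 and 5.58 CPM with DMSO and 28.2, 28.9 and 29 with trametinib in KP4, and 38.6, 33.8 and 46.6 and then 157, 152 and 162 in MiaPaca2. Treated KP4 libraries stayed below the untreated MiaPaca2 libraries, while the log2 changes were 2.20 in KP4 and 1.99 in MiaPaca2. SLIT3, a secreted guidance ligand of ROBO receptors, averaged 2.12 ± 0.08 (SE), the neural adhesion molecule L1CAM 1.81 ± 0.04 (SE), and FSTL3, a secreted binder of activin, 1.78 ± 0.03 (SE). AMOTL2, an angiomotin scaffold that binds YAP, averaged 1.84 ± 0.03 (SE), the focal adhesion protein gene TNS3 1.62 ± 0.03 (SE), and the tight junction gene CGN 1.61 ± 0.06 (SE). The nuclear DNA sensor IFI16, itself induced by interferon, averaged 1.74 ± 0.05 (SE), the ankyrin repeat gene ANKRD33B 2.00 ± 0.03 (SE), and the secretory vesicle GTPase RAB26 1.61 ± 0.11 (SE).

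**Figure D2:**
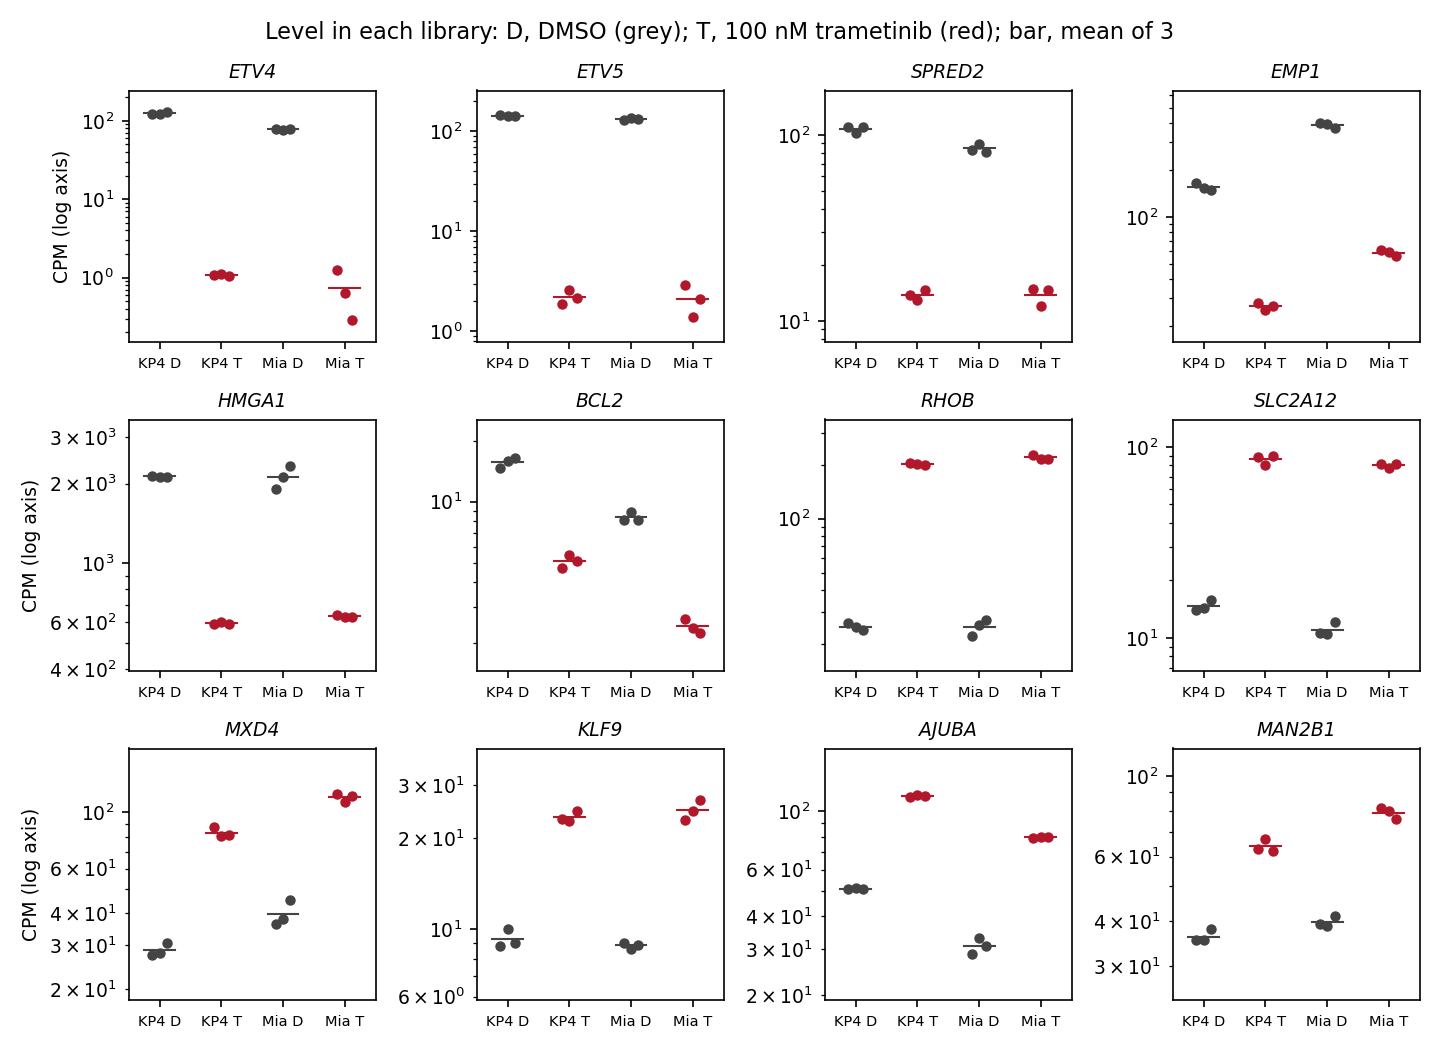
CPM of 12 genes in each of 12 libraries (log axis), with DMSO in grey (D), 100 nM trametinib in red (T) and a bar at the mean of 3. In every panel the treated libraries of a line lie on the same side of its controls and do not overlap them, with ETV4 and ETV5 falling and RHOB, SLC2A12, MXD4 and KLF9 rising.

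The most equal responses came from 6 genes with an average of at least 2-fold. MXD4 (ENSG00000123933, chr4:2247432-2262294, minus strand), which pairs with MAX in place of MYC and represses transcription, was at 27.3, 27.9 and 30.4 CPM with DMSO and 87.3, 80.5 and 81.5 with trametinib in KP4, and 36.3, 37.9 and 45.2 and then 119, 109 and 116 in MiaPaca2. The log2 fold change was 1.54 in KP4 and 1.53 in MiaPaca2, and the 95% interval of their difference ran from -0.18 to 0.21. PTPRJ, a receptor tyrosine phosphatase, changed by 1.11 in KP4 and 1.13 in MiaPaca2 (interval of the difference -0.17 to 0.13). NUDT18, a nucleotide-sanitising hydrolase, changed by 1.54 in KP4 and 1.54 in MiaPaca2 (interval -0.37 to 0.37), and GPR155, a cholesterol sensor of the lysosomal membrane, by 1.52 in KP4 and 1.52 in MiaPaca2 (interval -0.54 to 0.54). CACFD1 and the acyl-CoA binding protein gene ACBD4 averaged 1.30 and 1.01. The point estimates were near-identical, while the intervals show the size of difference that each gene still allows.

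**Figure D3:**
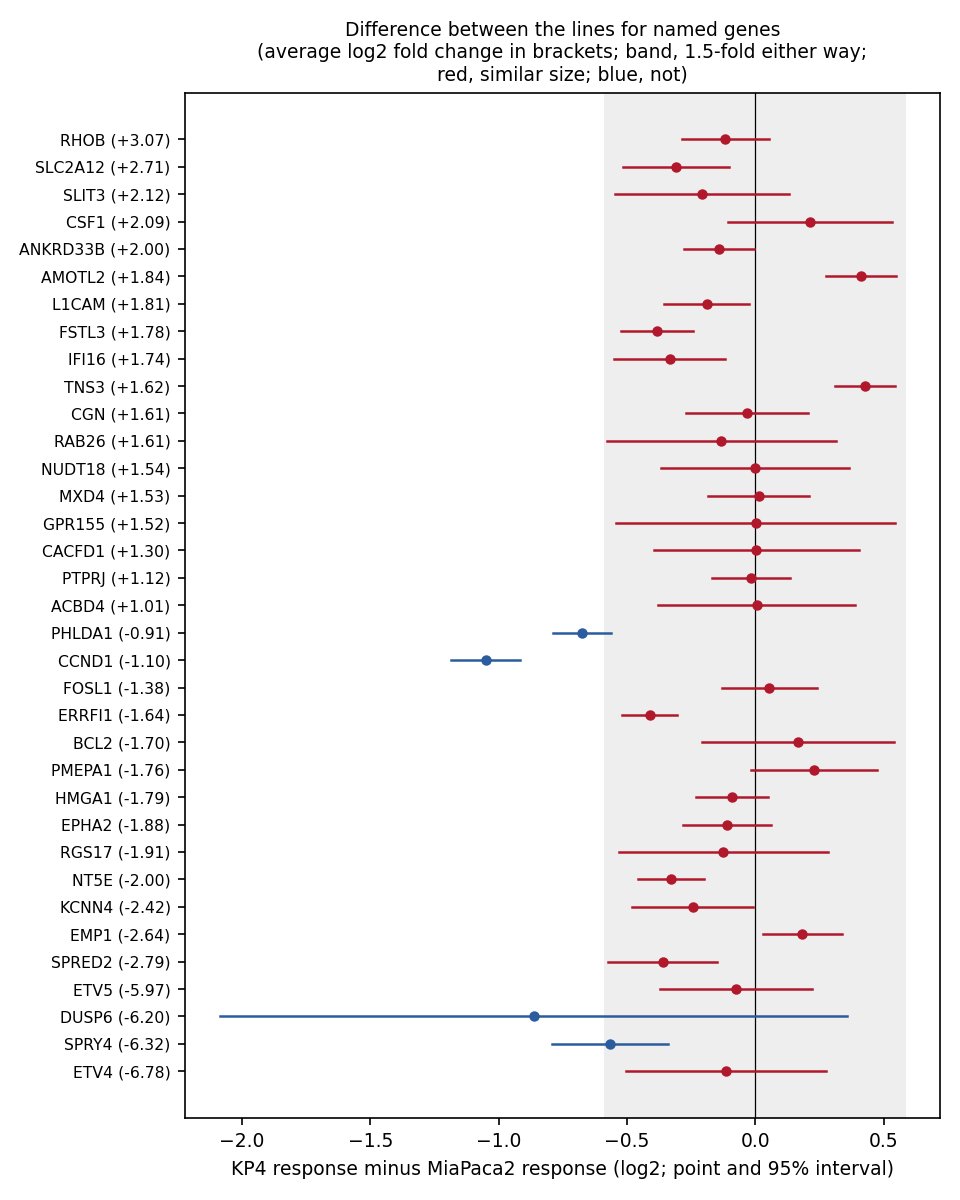
KP4 response minus MiaPaca2 response (log2, horizontal axis) for the largest, the most equal and the canonical MEK output genes, as a point with its 95% interval and with the average log2 fold change in brackets. Red genes lie inside the grey band of 1.5-fold either way; CCND1, PHLDA1, SPRY4 and DUSP6 (blue) reach beyond it.

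Canonical output genes of the cascade, the check that MEK was blocked, were mostly lower. Of 45 tested MAPK output genes, 38 were lower and 4 higher on average, with a median of -1.38 against 0.0253 over all tested genes, and 7 were shared at similar size (15.6%). Over all tested genes 34.4% were higher, 30.5% lower and 16.5% shared at similar size, of which 7.05% were higher and 9.44% lower, and the counts of this and the other lists stand beside these shares. SPRY4, a Sprouty-family feedback inhibitor, was at 206, 209 and 203 CPM with DMSO and 2, 2.09 and 2.26 with trametinib in KP4, and 214, 241 and 231 and then 4.06, 3.26 and 3.1 in MiaPaca2, and its larger fall in KP4 passed the test of the difference. DUSP6, the phosphatase of ERK, fell by 6.63 in KP4 and by 5.76 in MiaPaca2, with an interval of the difference from -2.09 to 0.36. The AP-1 subunit gene FOSL1 changed almost equally, by -1.36 in KP4 and -1.41 in MiaPaca2. The cyclin D1 gene CCND1 (-1.63 in KP4 and -0.58 in MiaPaca2) and PHLDA1 (-1.25 in KP4 and -0.57 in MiaPaca2) fell further in KP4. The list's median was -1.84 in KP4 and -1.05 in MiaPaca2. In 6 of the 45 the lines were called with opposite signs, against 2.75% of all tested genes. With limma-voom 5 of the list were at similar size. The 4 that rose on average were EPHA4, PLAU, ETS1 and JUNB, with averages of 0.54, 1.06, 0.84 and 0.83, named after their values were seen.

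Within the RAS to ERK cascade itself, 8 of 25 tested genes were higher and 11 lower, and 3 of each were shared at similar size (24% of the list). The shares over all tested genes, 34.4% higher, 30.5% lower and 16.5% at similar size, were not far from these. The adaptor SHC1 changed by -0.83 ± 0.02 (SE) and the phosphatase PTPN11 (SHP2) by -0.62 ± 0.03 (SE). Among 43 receptor tyrosine kinases and their ligands, 24 were higher and 14 lower (9 lower with the strict filter), with 2 and 3 at similar size (11.6%). ERBB2 rose by 0.68 ± 0.03 (SE) on average and the insulin-like growth factor receptor IGF1R changed by -0.63 ± 0.04 (SE).

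Nearly all DNA replication genes fell. Of 46 tested members 45 were lower and 23 of these were shared at similar size (50% of the list, against 16.5% of all tested genes). The 23 became 18 with RLE scaling and 19 with the strict filter. The list's median was -0.593 (-0.444 in KP4 and -0.749 in MiaPaca2). The exception was POLA2 at -0.09 (edgeR adjusted p = 0.34). MCM3 (ENSG00000112118, chr6:52264009-52284881, minus strand), a subunit of the replicative helicase, was at 332, 338 and 338 CPM with DMSO and 218, 219 and 217 with trametinib in KP4, and 398, 349 and 394 and then 192, 201 and 201 in MiaPaca2. Its average was -0.78 ± 0.03 (SE), with the treated libraries of each line below all controls. The helicase subunit MCM7 averaged -0.83 ± 0.02 (SE) and the licensing factor CDT1 -0.76 ± 0.04 (SE). E2F1, the S-phase transcription factor whose promoter is printed among those above, was at 111, 112 and 116 CPM with DMSO and 87.6, 82.1 and 87.5 with trametinib in KP4, and 79.2, 86.1 and 93.4 and then 65, 62.4 and 61.9 in MiaPaca2 and averaged -0.42 ± 0.04 (SE). The E2F-type motif TTTNNCGC was present in 20 of 32 members with a single listed start (62.5%) and in 9 of 16 of those at similar size (56.2%), compared with 10.4% of tested genes and 6.66% of all promoters.

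Most mitotic genes fell too, with the larger median fall in MiaPaca2. Of 42 tested, 40 were lower, and 8 of them at similar size (19% of the list, near the 16.5% of all tested genes). The medians were -0.274 in KP4 and -0.707 in MiaPaca2. CDC25B rose by 0.39 and KIF20A did not pass the test (-0.02, edgeR adjusted p = 0.64). UBE2C (ENSG00000175063, chr20:45812576-45816957, plus strand), the ubiquitin-conjugating enzyme of the anaphase-promoting complex, was at 237, 229.5 and 234 CPM with DMSO and 128, 126 and 125 with trametinib in KP4, and 213, 229 and 230.1 and then 102, 109.7 and 97.8 in MiaPaca2. It changed by -0.88 in KP4 and -1.12 in MiaPaca2. The proliferation antigen MKI67 averaged -0.48 ± 0.03 (SE), INCENP of the chromosomal passenger complex -0.47 ± 0.03 (SE) and the separase gene ESPL1 -0.26 ± 0.03 (SE). The CHR motif TTTGAA occurred in 23 of 29 promoters of the list (79.3%), against 9.42% of tested genes and 16% of all promoters, and the CCAAT box in 22 of 29 (75.9%), against 37.3% and 36.2%. Among 30 tested genes of homologous recombination and the Fanconi pathway, 25 were lower and 12 shared at similar size, including the exonuclease EXO1 (-0.77 ± 0.04 SE), RAD54L (-0.64 ± 0.05 SE) and FANCB (-0.62 ± 0.08 SE).

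Genes for building ribosomes and nucleotides were lower. Of 46 tested ribosome biogenesis genes 45 were lower and 22 at similar size, with a median of -0.441 (-0.304 in KP4 and -0.609 in MiaPaca2). POLR1D was the exception at 0.08 (edgeR adjusted p = 0.11). Leaving out replicate 1 of KP4 trametinib brought the 22 to 14, as did the strict filter. POLR1G (ENSG00000117877, chr19:45406209-45410766, plus strand), a subunit of RNA polymerase I, was at 99.5, 103 and 109 CPM with DMSO and 68.3, 70.4 and 65.4 with trametinib in KP4, and 79.6, 92.3 and 88 and then 52.8, 45.9 and 48.4 in MiaPaca2. Its average was -0.72 ± 0.04 (SE). The assembly factor RRS1 averaged -0.75 ± 0.05 (SE), the nucleolar protein MYBBP1A -0.66 ± 0.03 (SE) and the small subunit processome member UTP18 -0.46 ± 0.03 (SE). The E-box CACGTG was found in 12 of 26 promoters of the list (46.2%) and in 9 of 13 at similar size (69.2%), against 10.2% of tested genes and 7.28% of all promoters. Nucleotide synthesis had 29 of 30 tested members lower and 11 at similar size, with medians of -0.28 in KP4 and -0.616 in MiaPaca2. The serine hydroxymethyltransferase SHMT2 averaged -0.82 ± 0.03 (SE) and the thymidylate kinase DTYMK -0.57 ± 0.04 (SE). CTPS2 was the member that rose, by 0.25.

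Most protein folding, nuclear transport and tRNA synthetase genes were lower on average. In the chaperonin and HSP90 list 25 of 27 tested genes were lower, against 30.5% of all tested genes, while the 5 at similar size (18.5%) were near the 16.5% of all tested genes. The 5 included the HSP40 gene DNAJB1 (-0.76 ± 0.03 SE) and the prefoldin subunit PFDN2 (-0.68 ± 0.04 SE). Nuclear transport had 29 of 32 lower and 7 at similar size (21.9%). The 7 became 4 with RLE scaling, with DESeq2, with the strict filter and without replicate 1 of KP4 trametinib. The list held the RAN-binding protein RANBP1 at -0.58 ± 0.04 (SE) and the nucleoporin NUP50 at -0.54 ± 0.03 (SE). Of 20 tRNA synthetases 19 were lower and 6 at similar size, led by YARS1 (-0.61 ± 0.03 SE). WARS1, which is also induced by interferon, rose by 0.81. In the integrated stress response list 16 of 30 were lower, 8 higher and 5 lower at similar size (16.7%, near that of all tested genes). These included the amino acid transporters SLC7A1 (-0.76 ± 0.03 SE) and SLC7A5 (-0.64 ± 0.05 SE) and the serine synthesis enzyme PSAT1 (-0.70 ± 0.04 SE).

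More genes of cell cycle exit rose than fell. In the list of CDK inhibitors and exit factors 18 of 29 tested genes were higher and 4 lower, and 6 and 2 were at similar size. The median was 0.692 (0.309 in KP4 and 0.772 in MiaPaca2). KLF9 (ENSG00000119138, chr9:70384597-70414624, minus strand), a zinc finger transcription factor, was at 8.83, 10.1 and 9.02 CPM with DMSO and 23.1, 22.8 and 24.7 with trametinib in KP4, and 9.03, 8.65 and 8.91 and then 23, 24.6 and 26.8 in MiaPaca2. The levels were close in the lines before and after treatment, and the average was 1.41 ± 0.06 (SE). TOB1, an antiproliferative protein that recruits deadenylase, averaged 1.17 ± 0.03 (SE). FOXO factors and their targets had 19 of 24 higher and 3 lower, with a median of 0.729 (0.612 in KP4 and 1.07 in MiaPaca2). At similar size, however, were 2 and 1 (4 higher with RLE scaling, with DESeq2, with the strict filter and without replicate 2 of MiaPaca2 DMSO). FOXO3 averaged 0.72 ± 0.07 (SE) and the stress-induced SESN1 0.45 ± 0.10 (SE).

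**Figure D4:**
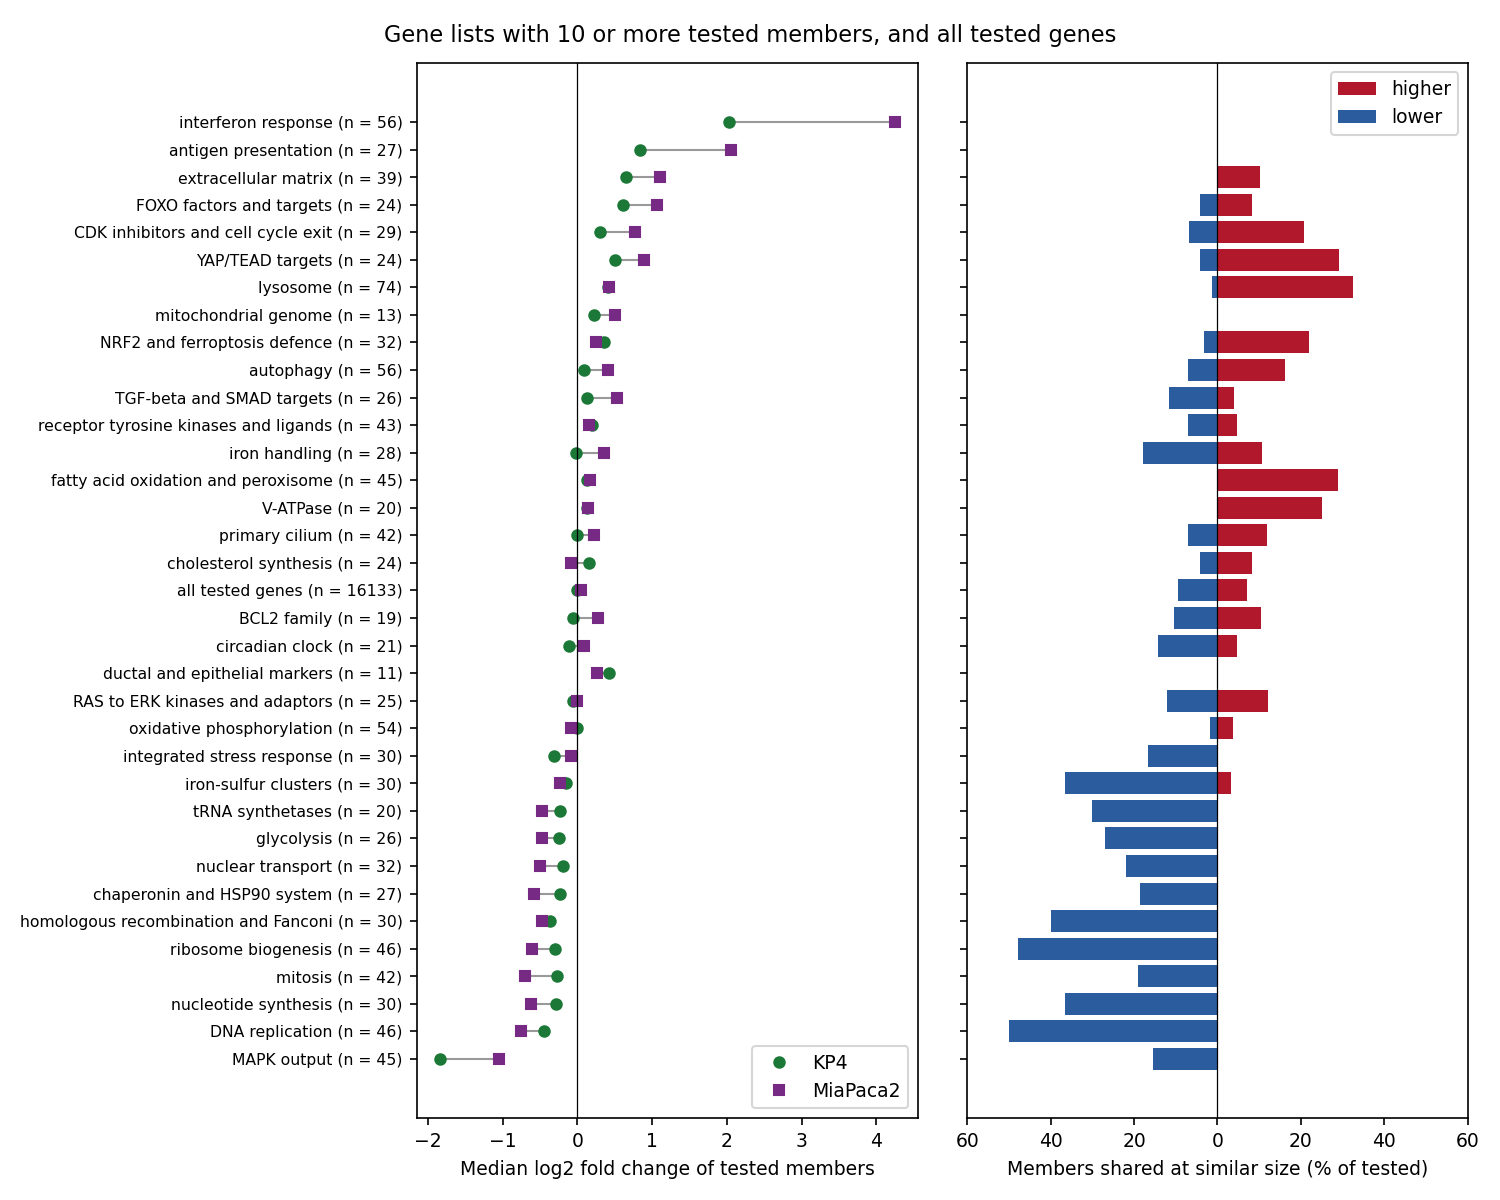
Left, median log2 fold change of the tested members of each gene list in KP4 (circles) and MiaPaca2 (squares); right, members shared at similar size as a percentage of tested members, higher to the right and lower to the left. DNA replication (50%) and ribosome biogenesis (47.8%) have the largest shares in the fit shown, and 19 and 14 of 46 with the strict filter. The interferon response has none in the fit shown despite the largest medians (2.03 and 4.25).

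Lysosomal genes were mostly higher, by nearly the same median in both lines. Of 74 tested members 50 were higher and 7 lower, and 24 and 1 were at similar size (33.8% of the list). Of all tested genes 34.4% were higher, 30.5% lower and 16.5% at similar size. The list's median was 0.41 in KP4 and 0.423 in MiaPaca2. Single members did not all agree, since 6 of the 74 were called in both lines with opposite signs, against 2.75% of all tested genes. MAN2B1 (ENSG00000104774, chr19:12646511-12666742, minus strand), lysosomal alpha-mannosidase, was at 35.4, 35.4 and 37.9 CPM with DMSO and 62.9, 67.2 and 62.2 with trametinib in KP4, and 39.3, 38.8 and 41.4 and then 81.4, 80.2 and 76.2 in MiaPaca2. The average was 0.91 ± 0.04 (SE) and no treated library overlapped a control. GAA (ENSG00000171298, chr17:80101556-80119879, plus strand), the acid alpha-glucosidase that digests glycogen, was at 113, 105 and 109 CPM with DMSO and 211, 208 and 208 with trametinib in KP4, and 196, 206 and 219 and then 324, 310.1 and 318 in MiaPaca2. It rose more in KP4 (0.94 in KP4 and 0.62 in MiaPaca2), while the heparan sulfatase SGSH rose more in MiaPaca2 (0.64 in KP4 and 0.96 in MiaPaca2). GALNS, a sulfatase of keratan sulfate, averaged 0.58 ± 0.04 (SE), the lysosomal calcium channel MCOLN1 0.46 ± 0.06 (SE) and PLBD2 0.45 ± 0.03 (SE).

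In the promoters of lysosomal genes the CLEAR-type motif TCACGTG was present in 13 of 39 tested members with a single listed start (33.3%) and in 8 of 15 at similar size (53.3%), against 6.09% of tested genes and 3.78% of all promoters. In the printed GAA and MCOLN1 stretches it occurs at a pair of places, each a full TCACGTGA palindrome, and in those of GALNS and PLBD2 at a single place. GUSB, beta-glucuronidase, was the member that fell at similar size, by 0.27 on the log2 scale. Of 20 V-ATPase subunits, the pump that acidifies lysosomes, 12 were higher and 3 lower, with 5 higher at similar size. ATP6V0E1 averaged 0.72 ± 0.03 (SE), ATP6V1E1 0.56 ± 0.03 (SE) and ATP6V1A 0.50 ± 0.04 (SE). The motif was in 3 of 10 promoters of that list.

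**Figure D5:**
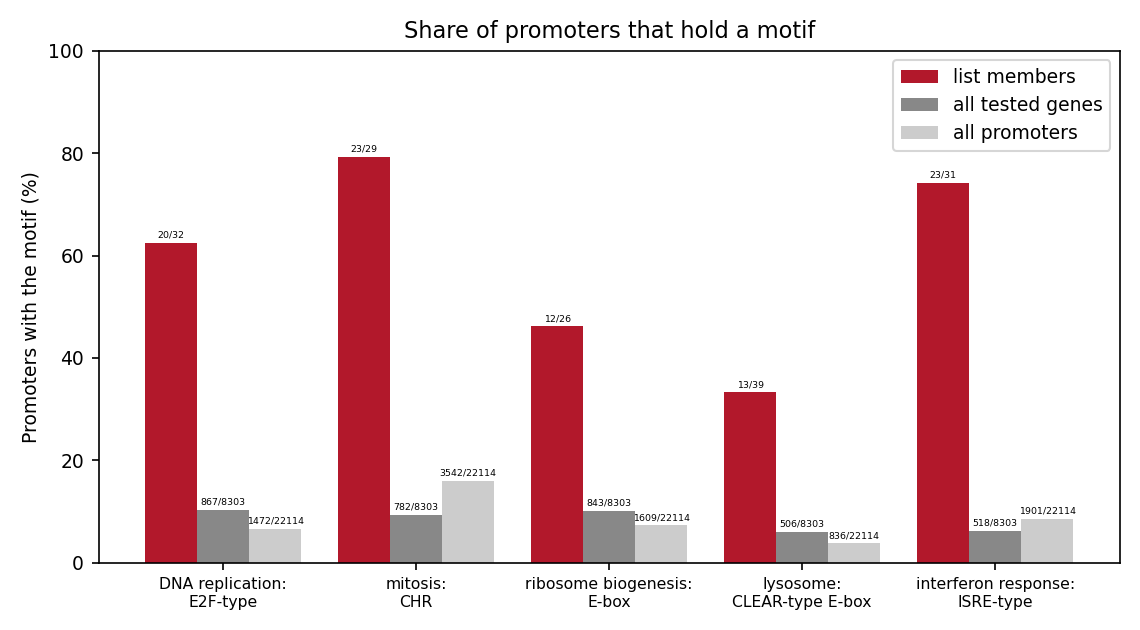
Percentage of promoters (250 bases before to 50 after a single listed start) that hold each motif on either strand, for tested list members (red), all tested genes (dark grey) and all promoters (light grey), with counts above the bars. Each list holds its motif in 33.3% to 79.3% of promoters, against 6.09% to 10.4% of tested genes.

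Of 56 autophagy genes 36 were higher and 9 lower on average, against 34.4% and 30.5% of all tested genes. At similar size 9 were higher and 4 lower (2 lower without replicate 1 of KP4 trametinib), against 7.05% and 9.44%, so that the lower share was no larger than over all tested genes. TFEB (ENSG00000112561, chr6:41683978-41736259, minus strand), the master regulator of lysosomal genes, was at 15.7, 15 and 14.1 CPM with DMSO and 24.5, 29.4 and 26.1 with trametinib in KP4, and 7.92, 8.95 and 8.46 and then 15.8, 15.4 and 17.3 in MiaPaca2. KP4 held more TFEB throughout, the change was 0.84 in KP4 and 0.94 in MiaPaca2, and the average was 0.89 ± 0.07 (SE). GABARAP, which is conjugated to autophagosome membranes, averaged 0.74 ± 0.04 (SE), and the cargo receptor TAX1BP1 0.67 ± 0.03 (SE).

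Of 28 tested iron handling genes 15 were higher and 9 lower, against 34.4% and 30.5% of all tested genes, so that the lower share was near that of all genes. At similar size were 3 higher and 5 lower (1 and 5 without replicate 2 of MiaPaca2 DMSO), 28.6% of the list against 16.5%. STEAP3 (ENSG00000115107, chr2:119223831-119265652, plus strand), the endosomal reductase that frees iron taken up with transferrin, was at 336, 343 and 343 CPM with DMSO and 149.8, 144 and 146 with trametinib in KP4, and 150.2, 214 and 168 and then 82.5, 81.7 and 84.3 in MiaPaca2. Each treated library lay below all controls of its line, with an average of -1.16 ± 0.07 (SE). The hepcidin regulator HFE averaged 0.69 ± 0.07 (SE) and the haem transporter SLC48A1 0.61 ± 0.06 (SE). Chosen after their values were seen, the transferrin receptor TFRC averaged -0.56 and ferritin light chain FTL 0.41, both at similar size. Among 30 iron-sulfur cluster genes 17 were lower and 3 higher, with 11 lower and 1 higher at similar size. They were led by the glutaredoxin GLRX3 (-0.56 ± 0.04 SE) and the mitochondrial assembly factor IBA57 (-0.49 ± 0.08 SE).

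Most glycolytic genes were lower, and more genes of fatty acid oxidation were higher than lower. Of 26 tested glycolytic genes 19 were lower and 4 higher, and 7 lower were at similar size, with a median of -0.35 (-0.252 in KP4 and -0.474 in MiaPaca2). HK2 (ENSG00000159399, chr2:74833981-74893359, plus strand), the inducible hexokinase, was at 56, 51.9 and 51.3 CPM with DMSO and 24.7, 28.5 and 28.6 with trametinib in KP4, and 118, 83.5 and 93 and then 59.6, 49.5 and 56 in MiaPaca2. The average was -0.90 ± 0.08 (SE). The platelet-type phosphofructokinase PFKP averaged -0.47 ± 0.03 (SE) and aldolase A (ALDOA) -0.39 ± 0.05 (SE). Of 45 fatty acid oxidation and peroxisome genes 23 were higher and 7 lower (4 lower without replicate 3 of KP4 trametinib, and 4 without replicate 1 of MiaPaca2 trametinib), and 13 higher and 0 lower at similar size, with a median of 0.185. The peroxisomal reductase DECR2 averaged 0.82 ± 0.06 (SE) and the short-chain dehydrogenase ACADS 0.80 ± 0.07 (SE). Oxidative phosphorylation gave 10 higher and 22 lower of 54, with 2 and 1 at similar size (4 higher with scaling by library size only) and a median of -0.061.

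In the list of NRF2 targets and ferroptosis defence 19 of 32 were higher and 6 lower, with 7 and 1 at similar size. Thioredoxin reductase TXNRD1 averaged 0.74 ± 0.02 (SE) and malic enzyme ME1 0.62 ± 0.04 (SE). GPX1 (ENSG00000233276, chr3:49357171-49358600, minus strand), the cytosolic glutathione peroxidase that GENCODE 29 lists as a polymorphic pseudogene, was at 51.8, 51.2 and 51.3 CPM with DMSO and 23.8, 21.8 and 25 with trametinib in KP4, and 39.6, 44 and 47.2 and then 18.2, 21.9 and 22.3 in MiaPaca2. Every treated library was below every control, and the average was -1.10 ± 0.06 (SE). Of 19 tested BCL2 family members 8 were higher and 6 lower, and 2 of each were at similar size (21.1%), shares not far from the 34.4%, 30.5% and 16.5% of all tested genes. BCL2L11 (ENSG00000153094, chr2:111119378-111168447, plus strand), the pro-apoptotic BIM that ERK normally marks for degradation, was at 18.9, 18.3 and 18.1 CPM with DMSO and 33.4, 30.8 and 33.8 with trametinib in KP4, and 29.9, 28.2 and 30.4 and then 54.3, 51.8 and 52.8 in MiaPaca2 and averaged 0.83 ± 0.05 (SE), in the direction opposite to BCL2.

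Targets of YAP and TEAD, and matrix genes, were mostly higher. Of 24 tested YAP/TEAD targets 17 were higher and 4 lower, with a median of 0.68 (0.508 in KP4 and 0.885 in MiaPaca2), and 7 and 1 at similar size. AJUBA (ENSG00000129474, chr14:22971174-22982642, minus strand), a LIM protein of adherens junctions, was at 50.5, 51.3 and 50.7 CPM with DMSO and 114, 115 and 114 with trametinib in KP4, and 28.8, 33 and 30.9 and then 79.1, 79.8 and 79.6 in MiaPaca2. It averaged 1.27 ± 0.04 (SE), and NT5E was the member that fell at similar size. Of 39 extracellular matrix genes 28 were higher and 4 lower, with a median of 1 (0.645 in KP4 and 1.1 in MiaPaca2). Only 4 were at similar size, 10.3% of the list and below the 16.5% of all tested genes. HSPG2 (ENSG00000142798, chr1:21822245-21937297, minus strand), the basement membrane proteoglycan perlecan, was at 108, 118 and 118 CPM with DMSO and 316, 297 and 294 with trametinib in KP4, and 130.0, 128 and 142 and then 436, 424 and 442 in MiaPaca2. It averaged 1.55 ± 0.03 (SE), the laminin chain LAMB2 1.52 ± 0.05 (SE) and the collagen VI chain COL6A1 1.10 ± 0.05 (SE). The fibroblast marker sum given above was also higher with trametinib, and its largest changes in CPM were in matrix genes of its own. By ratio the receptor gene PDGFRB changed more, at the lower levels given above. COL1A1 went from 7.38 to 10.4 CPM in KP4 and from 4.47 to 11.4 in MiaPaca2, and COL3A1 from 1.2 to 4.2 and from 5.43 to 25.5. ACTA2 went from 9.71 to 7.98 CPM in KP4 and from 5.47 to 8.21 in MiaPaca2. The part of that sum in the matrix values was not tested. In the list of TGF-beta and SMAD targets 15 of 26 were higher and 7 lower. At similar size were 1 and 3 (15.4%, near that of all tested genes), including PMEPA1 and LTBP2 (-1.52 ± 0.05 SE).

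Few genes outside the protein-coding class were shared at similar size (1.89% of those tested, against 19.6% of protein-coding genes). SLC9A3-AS1 averaged 1.26 ± 0.05 (SE) and LINC02035 0.93 ± 0.09 (SE). DLGAP1-AS2 averaged -0.91 ± 0.09 (SE), and an unnamed antisense gene, ENSG00000272405, chr1:156641666-156644887, minus strand, -2.53 ± 0.09 (SE). Whether strand was used in counting is not given in the sources used here, so an antisense gene cannot be told apart from its partner. The mitochondrial large ribosomal RNA MT-RNR2 was at 2982, 3122 and 2973 CPM with DMSO and 5517, 5592 and 5720 with trametinib in KP4, and 3019, 3578 and 3217 and then 6920, 6825 and 6968 in MiaPaca2, an average of 0.98 ± 0.03 (SE). It moved with the mitochondrial share of the libraries and has nuclear copies whose reads may be mixed with its own.

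The shared genes stand beside programs that moved the same way by unequal amounts. Of 56 tested interferon response genes 55 were higher on average and 54 in each line, with a median of 3.11, but 0 were at similar size. With RLE scaling, with the strict filter and without robust shrinkage 1 was at similar size. The interferon-induced IFI16, named above among the shared rises, was not in this list. The medians were 2.03 in KP4 and 4.25 in MiaPaca2. IFITM2 did not pass the test (0.02, edgeR adjusted p = 0.93). IFI6, an interferon-stimulated survival gene, was at 11.9, 12.7 and 12.5 CPM with DMSO and 360.2, 357 and 367 with trametinib in KP4, and 13.7, 13.4 and 14.9 and then 1353, 1397 and 1448 in MiaPaca2. The controls were alike in both lines and the treated MiaPaca2 libraries were well above the treated KP4 libraries. IFIH1, the double-stranded RNA sensor MDA5, was at 10.1, 9.52 and 10.0 CPM with DMSO and 62.4, 56.5 and 64.7 with trametinib in KP4, and 5.98, 7.58 and 7.09 and then 220.3, 214 and 224 in MiaPaca2. The difference passed the test for both genes, with KP4 minus MiaPaca2 at -1.78 for IFI6 and -2.37 for IFIH1 on the log2 scale. The motif GAAANNGAA was in 23 of 31 promoters of the list (74.2%), against 6.24% of tested genes. Antigen presentation had 21 of 27 higher, 0 lower and 0 at similar size.

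At the far end were genes that the lines moved apart. The sialomucin PODXL changed by 2.11 in KP4 and -1.41 in MiaPaca2, and the laminin receptor BCAM by 2.90 in KP4 and -0.19 in MiaPaca2. In the other direction, the chemokine CXCL2 changed by -0.93 in KP4 and 1.77 in MiaPaca2 and the cytokine LIF by -2.12 in KP4 and 0.40 in MiaPaca2. Among genes of the same sign the calcium-binding CALB2 (-0.40 in KP4 and -3.31 in MiaPaca2), UPK3B (4.38 in KP4 and 1.53 in MiaPaca2), the interferon-induced TRIM22 (6.58 in KP4 and 10.37 in MiaPaca2) and TRANK1 (2.64 in KP4 and 6.04 in MiaPaca2) differed most. These genes were chosen for their difference, so their values are a description.

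Over the promoters of the similar-size genes that changed at least 1.5-fold, motif shares were counted by direction. The 162 promoters of genes that fell held the E2F-type motif in 14.8%, the E-box CACGTG in 15.4% and the ETS core CCGGAAG in 27.8%. The 164 promoters of genes that rose held them in 4.88%, 8.54% and 13.4%. The CLEAR-type motif was in 6.79% and 6.71%. The shares of tested genes were 10.4% for the E2F-type motif, 10.2% for the E-box, 20.5% for the ETS core and 6.09% for the CLEAR-type motif. These shares were not tested, and they draw on promoters with 1 listed start.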

How the data were processed

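The authors deposited 1 table of raw read counts per gene for the 12 libraries, with no normalization. STAR, DESeq2 and GRCh38 (hg38) were named per the submitters' processing notes; the sources used here name no counting program, annotation, strand setting or version. All 58735 Ensembl identifiers were found in GENCODE 29, which gave types and positions, and 0 lines named no gene. Genes were filtered with filterByExpr (16133 kept), scaled with TMM and fitted in edgeR 4.0.16 (R 4.3.3) with a mean for each of 4 groups, quasi-likelihood tests with robust shrinkage and Benjamini-Hochberg adjustment over all tested genes at 0.05. The contrasts were trametinib minus DMSO in each line, their average, and KP4 minus MiaPaca2. The common dispersion was 0.00299, a coefficient of variation between replicates of 5.47%. A gene's SE was taken from its fold change and F statistic, and the interval of the difference from the SEs of both lines. For a large change that leaves few counts in a group, this SE can fall below the sampling noise of the counts. No replicate pair agreed within sampling noise in a chi-square test, so all 12 libraries were kept.

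On simulated counts for the averaged contrast (15852 genes tested, 50 changed per kind), edgeR called 47 of 50 genes changed 1.5-fold in both lines and 50 of 50 changed 2-fold, and placed 38 and 40 of them at similar size. It placed 0 of 50 changed 2-fold in KP4 only and 0 of 50 changed 2-fold against 4-fold there. It called 10 unchanged genes in the average. The changed genes were drawn only from those with a mean of at least 50 counts per library, and all other genes were left unchanged. The simulated shares therefore do not cover genes at lower levels or a response as broad as the measured one.

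The members and the gene lists were chosen with earlier results of these data known. Genes named in the text are the 12 largest rises and 12 largest falls at similar size among protein-coding genes with libraries apart in both lines and 5 CPM in the higher group; the 3 largest such changes of each list; the 6 most equal responses of at least 2-fold; 7 MAPK output genes whatever their values; 3 rises and 3 falls of other gene types; and, for contrast, the 2 largest differences of each kind. Some genes that this rule names are not reported here. Other names were chosen after their values were seen. Promoters came from RefSeq (GRCh38.p14), from 250 bases before to 50 after the start. They were matched by symbol, using the 22114 symbols with 1 listed start, which included 63 of the 130 genes named by the rule. Printed stretches belong to the members of each list with the largest average change whose 100 bases before the start hold the motif, and held at most 30 bases of a GENCODE 29 exon. Alternatives were other scalings, filters, tools (limma-voom 3.58.1, DESeq2 1.42.0), thresholds and bounds, an additive model of line and treatment, replicate blocks, and leaving out each library.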

Additional observations from a re-analysis of the deposited data

Results flagged for a closer look

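For 49 of the 130 genes named by the rule, edgeR's test of the difference between the lines passed its threshold. It did so for 36.1% of all tested genes and for 509 of the 2661 at similar size. The naming rule used this difference, as a bound for most of the 130 and to pick the contrast genes. The 49 therefore cannot be compared with the share over all tested genes. Each value in brackets is the KP4 minus the MiaPaca2 log2 fold change, so that for a gene that fell a positive value is a smaller fall in KP4.

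Within the 1.5-fold bound, the genes that fell less in KP4 were PTPN11 (0.35), MCM7 (0.44), MCM3 (0.32), CDT1 (0.40), UBE2C (0.24), MKI67 (0.18), INCENP (0.25), MYBBP1A (0.39), SHMT2 (0.30), DTYMK (0.24), DNAJB1 (0.34), HSPA9 (0.25), RANBP1 (0.25), EXO1 (0.39), RAD54L (0.35), PSAT1 (0.30), SLC7A5 (0.28) and YARS1 (0.29). The genes that fell more in KP4 were ERRFI1 (-0.41), NT5E (-0.33), SPRED2 (-0.36) and PFDN2 (-0.22). The genes that rose more in KP4 were AMOTL2 (0.41), TNS3 (0.43), GAA (0.32) and ERBB2 (0.43). Those that rose more in MiaPaca2 were SLC2A12 (-0.31), FSTL3 (-0.38), IFI16 (-0.33), TOB1 (-0.22), SGSH (-0.32), ATP6V0E1 (-0.47), GABARAP (-0.27), TXNRD1 (-0.17), AJUBA (-0.20), HSPG2 (-0.31), SLC9A3-AS1 (-0.30) and MT-RNR2 (-0.19).

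Outside the similar-size class the differences were those of SPRY4 (-0.57), CCND1 (-1.05), PHLDA1 (-0.68), PODXL (3.52), BCAM (3.09), CXCL2 (-2.71), LIF (-2.52), CALB2 (2.91), UPK3B (2.85), TRIM22 (-3.78) and TRANK1 (-3.40). PODXL, BCAM, CXCL2 and LIF had opposite signs in the lines.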

How the results depend on the processing

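The counts of genes called in the average and of genes shared at similar size stayed within 1.5 times of their values under the other scalings, filters, tools, thresholds and left-out libraries that were run. The exception was a narrower bound: with the interval of the difference within 0.322 on the log2 scale, 549 genes were higher and 850 lower at similar size. With the strict filter of at least 5 CPM in at least 3 libraries the balance turned to 1320 higher and 1222 lower, and 51.9% of the similar-size genes were higher, against 42.8%. Within 2-fold there were 3266, which held all 2661. Leaving out 1 library at a time gave 5244 to 5743 genes higher and 4737 to 5070 lower in the average, and 994 to 1188 higher and 1165 to 1620 lower at similar size. Without replicate 1 of KP4 trametinib 2263 genes were at similar size, of which 2022 were among the 2661. Fits with a replicate block within each line called 5474 higher and 4844 lower in the average, with 2599 at similar size, and a replicate block shared by both lines gave 5522, 4894 and 2642. Deviations from the group mean in libraries with the same number had correlations from -0.0304 to 0.0612. Between DMSO and trametinib of 1 line these were -0.0304 to 0.00967. Between KP4 DMSO and MiaPaca2 DMSO they were 0.0612, 0.041 and 0.0607, weak but above the -0.0574 to -0.000743 of different numbers. Whether the numbers pair libraries across the lines was not tested. An additive model with line as a covariate called 9397 genes, 9170 of them in the same direction as the 10469 of the average, and all 2661 at similar size, but 4 of the 443 called with opposite signs. Its common dispersion was 0.0131, since a difference between the lines counts there as noise. Of 130 genes named by the rule, 126 kept their direction and side of the threshold in the average under each setting run. PODXL, BCAM, CXCL2 and LIF, which had opposite signs in the lines, lost their call in the additive model. There they stood at 0.15, 0.61, 0.55 and -0.86, with edgeR adjusted p-values of 0.845, 0.227, 0.311 and 0.112. The similar-size class held 0% of the genes in the lowest of 4 bins by level, and whether depth sets this was not tested.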
